A study of Mus musculus with 7 samples.

Results

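The regions described here were 25 stretches of mouse autosome, each 5 Mb long, in which one allele gave clearly more ATAC-seq reads than the other in a neural progenitor cell (NPC) line. They were taken from fixed 5 Mb bins of chromosomes 1 to 19 with at least 20 peaks holding at least 10 allelic reads each. The bins were chosen by the measured allele shares themselves: a bin was a member where the median share of the first-listed allele over those peaks was under 40% or over 60%. In deltaFT NPC 14 of 452 bins met this (3.1%), and in wild-type NPC 11 of 480 bins (2.29%). No bin was chosen in both lines. Neighbouring bins chosen in the same line and direction made 8 segments in deltaFT NPC and 7 in wild-type NPC, on 10 chromosomes in all. The bins held 2078 of 36036 autosomal peaks in deltaFT NPC, 1975 of 39692 in wild-type NPC and 1360 of 27538 in mESC.

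Allelic reads were compared in 3 female lines from a 129S1 x Cast:EiJ cross, with 1 sample per group. The deltaFT NPC (line sgdgb2) lacked the boundary region of the X chromosome that contains Dxz4, wild-type NPC were line C2, and both were grown in N2 and B27 medium with FGF and EGF. The mESC (line F1216) were embryonic stem cells kept on gelatin in serum with mLIF, as the sample's title and growth conditions give them; its source label instead names neural progenitors, and the title was followed in every comparison with mESC. Each of the 3 was a single named line, made as 2 libraries of 50K cells. The other 4 samples were male TXY mESC (J1) with a doxycycline-inducible Xist, which were either deltaRepA or intact, with 2 ug/mL doxycycline for 48 hours or without it. The TXY lists carried no allele counts and give peak numbers only. The sources name no strain for the allele columns, so they are named by column, as the first-listed and the second-listed allele. No gene annotation of the mm9 build was used here, so the cell types were not checked against marker genes and peaks are given by position.

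In ATAC-seq a transposase cuts accessible DNA and adds sequencing adapters to it, so reads pile up where chromatin is open. In the cells of a cross between strains, a read that covers a strain-specific base can be given to one parental chromosome, and on most of an autosome both chromosomes give similar numbers. Imprinting, sequence differences in regulatory elements, and gain or loss of chromosome segments in culture are all known to make the alleles of a cell line unequal. Cultured mouse stem cells and their derivatives are known for acquiring such segmental changes.

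The 3 lists used for allele counts held 10845382 autosomal reads in peaks in deltaFT NPC, 10724324 in wild-type NPC and 6176798 in mESC. Of these reads, 40.7% were given to an allele in deltaFT NPC, 38.8% in wild-type NPC and 40.1% in mESC. Outside the 25 bins the first-listed allele took 49.3% of allelic reads in deltaFT NPC, 50.2% in wild-type NPC and 47.9% in mESC. In the bins together it took 43.3% in deltaFT NPC, 54.96% in wild-type NPC and 48.3% in mESC. Over all 25 bins together, the share of reads given to an allele was close to that outside. It was 40.2% against 40.7% in deltaFT NPC and 38.1% against 38.9% in wild-type NPC. Single bins differed. Chromosome 3 at 60 to 65 Mb had 16.3% in deltaFT NPC, 16.95% in wild-type NPC and 22.7% in mESC. There, 33 of 77 deltaFT peaks had at least 10 allelic reads. Intervals below are exact Clopper-Pearson 95% intervals, of allelic reads pooled over the peaks with at least 10 of them or, for counts of peaks, of peaks. They cover counting error only, and with 1 sample per group no test between groups was made. Where the line that chose a bin is described, the allele shares are those the choice rested on and carry no test.

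Of the 14 bins chosen in deltaFT NPC, 11 (2.43% of the bins tested) were low in the first-listed allele and 3 (0.664%) were high. The 11 low bins had medians between 31.2% and 38.1% in deltaFT NPC. The same bins had medians between 50% and 58.6% in wild-type NPC, and the 10 with enough peaks had 47.5% to 53.5% in mESC. The 3 high bins had medians of 63.2%, 64.1% and 65.8% in deltaFT NPC and of 48.1% to 50% in wild-type NPC. The bin nearest outside the lower limit in deltaFT NPC had a median of 43.4% (chromosome 18 at 85 to 90 Mb), against 38.1% in the last bin inside it (chromosome 11 at 95 to 100 Mb). At the upper limit the nearest bins outside had 60% (chromosome 4 at 40 to 45 Mb) and 59.5% (the next 5 Mb of that chromosome), against 63.2% in the nearest inside.

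**Figure D1:**
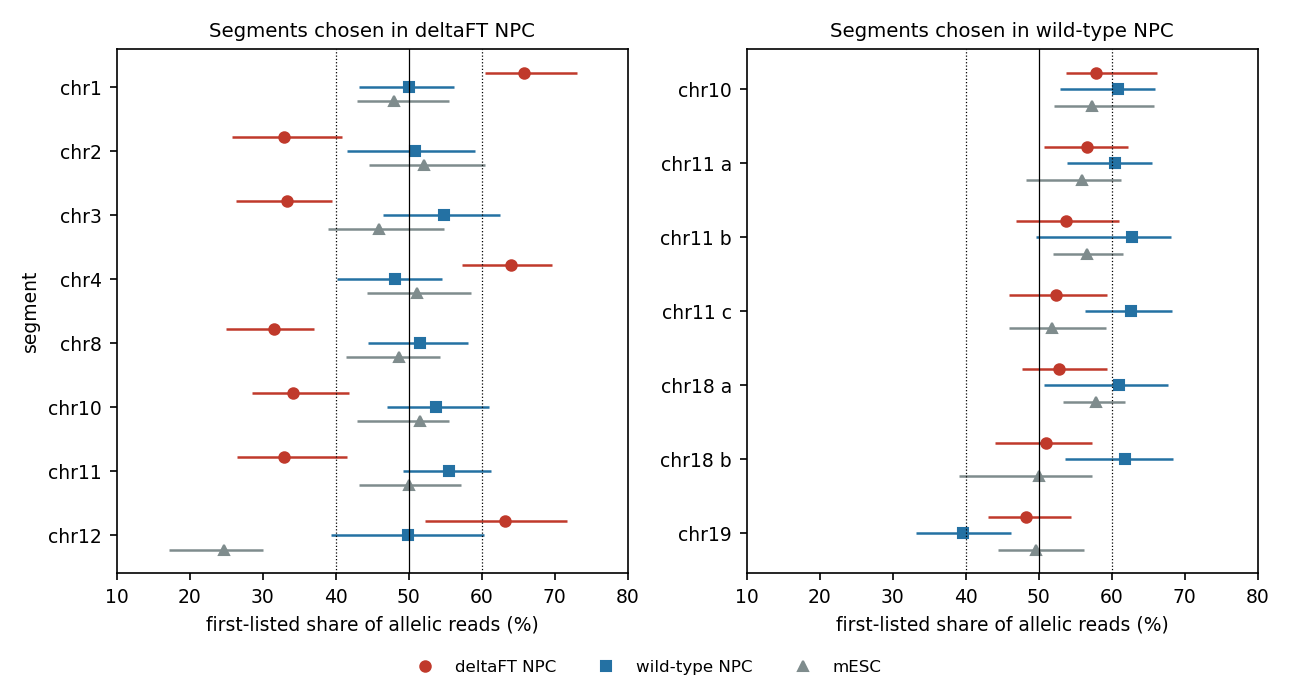
Median share of the first-listed allele (% of allelic reads) over the peaks of each segment in deltaFT NPC, wild-type NPC and mESC, with lines from the lower to the upper quartile of the peaks; dotted lines mark 40% and 60%, and letters number segments of 1 chromosome along its length. In the left panel the deltaFT medians stand at 31.6% to 34.1% or at 63.2% to 65.8%, while in the right panel the wild-type medians stand at 60.5% to 62.7% or, on chromosome 19, at 39.7%.

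The longest of the deltaFT segments lay on chromosomes 8 and 11. On chromosome 8 at 65 to 80 Mb the first-listed allele had 15537 reads and the second-listed 32354 in deltaFT NPC. The wild-type NPC counts there were 15693 and 14890, and the mESC counts 9726 and 10467. The first-listed share was thus 32.4% (interval 32.0% to 32.9%) in deltaFT NPC, 51.3% (50.8% to 51.9%) in wild-type NPC, and in mESC 48.2% (47.5% to 48.9%). On chromosome 11 at 85 to 100 Mb the counts were 17838 first-listed and 36890 second-listed reads in deltaFT NPC, 13584 and 11274 in wild-type NPC, and 9491 and 9693 in mESC. The first-listed share was 32.6% in deltaFT NPC, 54.6% in wild-type NPC and 49.5% in mESC. In both segments the deltaFT share lay well below 50%, and the shares of the other 2 lines lay within 5 points of it.

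The other low segments had similar ratios between alleles. Chromosome 3 at 60 to 70 Mb had a first-listed share of 32.96% (interval 32.4% to 33.6%) in deltaFT NPC, 53.3% in wild-type NPC and 46.9% in mESC. Chromosome 2 at 0 to 10 Mb had 34.8% (34.1% to 35.5%) in deltaFT NPC, 51.8% in wild-type NPC and 53.2% in mESC. Chromosome 10 at 20 to 25 Mb had 36.0% (34.96% to 37.0%) in deltaFT NPC, 51.8% in wild-type NPC and 50.2% in mESC. The second-listed allele gave between 1.78 and 2.08 reads for each first-listed read in the 5 low segments of deltaFT NPC, against 0.830 to 0.949 in wild-type NPC. The ratio between alleles was thus of similar size in the low segments, on 5 different chromosomes.

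In the 3 high segments the alleles changed places. Chromosome 1 at 120 to 125 Mb had 11024 first-listed and 6170 second-listed reads in deltaFT NPC, a share of 64.1% (interval 63.4% to 64.8%). There, wild-type NPC had 48.3% and mESC 48.6%. Chromosome 4 at 55 to 60 Mb had a share of 64.1% (63.3% to 64.8%) in deltaFT NPC, 47.9% in wild-type NPC and 52.9% in mESC. The first-listed allele gave 1.79 reads for each second-listed read on chromosome 1, 1.78 on chromosome 4 and 1.66 on chromosome 12. These ratios lay at the lower end of those of the low segments, or below it, with the alleles exchanged. All these ratios sum whole bins, which also hold peaks outside the unequal stretches placed by a fit below. Inside the fitted ends the median first-listed share in deltaFT NPC was 66.5% on chromosome 1, 66.25% on chromosome 4 and 67.2% on chromosome 12. In the low segments it was 30.9% to 33.7%. The fit itself selects for unequal medians.

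The third high segment, chromosome 12 at 90 to 95 Mb, was far from equal in mESC as well as in deltaFT NPC. The first-listed share was 62.4% (interval 61.4% to 63.3%) in deltaFT NPC, 51.2% (50.1% to 52.3%) in wild-type NPC, and in mESC 24.9% (24.0% to 25.8%). All 10 bins past the limits in mESC (2.3% of 435 tested), of which this is 1, lay on chromosome 12. Of the 21 member bins with enough peaks in mESC, this was the only one past the limits there. In the other 20 the pooled mESC share was between 45.2% and 59.7%.

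The inequality ran through most peaks of a bin. In the low bins of deltaFT NPC 904 of 1000 peaks (90.4%, interval 88.4% to 92.2%) had a first-listed share under 50%. In the high bins 220 of 249 (88.4%) had a share over 50%. Over all autosomal bins tested in deltaFT NPC, 57.4% of peaks lay on the side of 50% of their bin's median. Since the rule used these medians, the shares of member peaks are a description. In mESC, which the rule did not use, 283 of 535 peaks of the 10 low bins with enough peaks (52.9%) lay on the side of their bin's mESC median, against 57.7% over all bins. In the 3 high bins, which include the unequal mESC bin on chromosome 12, it was 133 of 191 (69.6%, 62.6% to 76.1%). Very few peaks were read from 1 allele: 10 of the 1000 low-bin peaks had a share under 5% or over 95% (8 and 2), which is 1.0%, against 0.77% of peaks in the other bins.

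Peaks of different kinds in the low bins of deltaFT NPC had nearly the same share. Peaks with at least the autosomal median of reads pooled to 32.9% (interval 32.6% to 33.2%) and those below it to 33.8% (33.3% to 34.4%). Wide peaks pooled to 33.01% and narrow ones to 33.3%. Peaks also found in the mESC list pooled to 32.2% (31.9% to 32.5%) and the others to 34.2% (33.8% to 34.6%). Peaks also found in wild-type NPC pooled to 33.03% and the others to 33.2%. Each of these classes was within 2 percentage points of its counterpart.

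Single strong peaks are given as examples. They lie in bins chosen by the shares of such peaks, so their side in the line that chose them is a description. The peaks named were, in each segment, the 2 with most reads among those in all 3 lists and the 1 with most reads among those in no mESC list. In the deltaFT segments this gave 24 peaks, of which 22 had at least 10 allelic reads in deltaFT NPC, and 21 of these lay on the side of their segment. In wild-type NPC 8 of 22 lay on that side. At chr3:65778142-65779007 the first-listed and second-listed alleles had 534 and 1298 reads in deltaFT NPC (29.1%), 511 and 516 in wild-type NPC (49.8%), and 220 and 258 in mESC (46.0%). At chr8:72240273-72241201 the counts were 317 and 697 in deltaFT NPC (31.3%), 351 and 275 in wild-type NPC (56.1%), and 90 and 129 in mESC (41.1%). At chr2:3200810-3202375 they were 292 and 566 in deltaFT NPC (34.0%), 298 and 241 in wild-type NPC (55.3%), and 220 and 212 in mESC (50.9%). In each of these 3 peaks the deposited first-listed counts of the NPC lines were close, and the second-listed counts were higher in deltaFT NPC. Other named peaks of the low segments differed. First-listed counts were 310 in deltaFT NPC and 79 in wild-type NPC at chr11:87932295-87933308, and 166 and 65 at chr3:66129388-66130363. The peaks were named by their deltaFT reads, and all 24 had more unscaled reads in deltaFT NPC than in wild-type NPC.

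Among peaks of the high segments, chr4:57968861-57969864 had 1001 first-listed and 552 second-listed reads in deltaFT NPC (64.5%), 440 and 548 in wild-type NPC (44.5%), and 369 and 329 in mESC (52.9%). At chr12:92622331-92623281 the counts were 686 and 336 in deltaFT NPC (67.1%), 378 and 370 in wild-type NPC (50.5%), and 178 and 623 in mESC (22.2%). The peak named on chromosome 10 that went against its segment, chr10:24743362-24744034, had 107 and 102 reads in deltaFT NPC (51.2%) and 45 and 19 in wild-type NPC (70.3%). That peak was thus nearly equal in deltaFT NPC but lower in its first-listed share than in wild-type NPC.

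Total reads were also higher in deltaFT NPC in most of these bins. The choice of bins did not use the totals, but they include the allelic reads. Reads were summed over peaks found in both NPC lists and scaled so that the median of the 427 other bins was 0 on the log2 scale. Of the 14 bins chosen in deltaFT NPC, 11 had at least 1.25-fold more reads in deltaFT NPC than in wild-type NPC, and none had 1.25-fold fewer. Over all 450 bins compared, 17.1% passed that fold upwards and 14.2% downwards. The 11 low bins had a median log2 ratio of 0.54 and a range from -0.27 to 1.00. The 3 high bins had ratios of 0.36 (chromosome 1), 0.55 (chromosome 4) and 0.15 (chromosome 12). In the other bins the 5th and 95th percentiles were -0.47 and 0.50, and single other bins reached 0.71.

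By segment, chromosome 10 at 20 to 25 Mb had the highest ratio, with 16091 reads in deltaFT NPC and 7806 in wild-type NPC over 36 matched peaks, a scaled log2 ratio of 0.99. Chromosome 11 at 85 to 100 Mb had 106287 and 61591 reads over 231 peaks, a ratio of 0.74. Chromosomes 4 and 3 followed with 0.55 each, then chromosome 8 with 0.46, chromosome 2 with 0.41, chromosome 1 with 0.36 and chromosome 12 with 0.15. The only member bin of deltaFT NPC below 0 was chromosome 8 at 65 to 70 Mb, with 7372 reads against 8579 over 20 peaks and a ratio of -0.27. In that bin the unequal stretch began at 67.6 Mb by the fit of its ends.

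The same ratio was also read for each allele. These values hold the deltaFT allele counts that the bins were chosen by, so which allele is higher is set by the choice and is a description only. In the low segments the second-listed allele was higher in deltaFT NPC by 0.92 (chromosome 2), 1.09 (chromosome 3), 0.94 (chromosome 8), 1.29 (chromosome 10) and 1.303 (chromosome 11) on the scaled log2 scale. The first-listed allele stood at 0.02, -0.07, -0.13, 0.31 and 0.05 in the same segments. Single bins spread more widely: over the 11 low bins the first-listed allele ranged from -0.55 to 0.31 and the second-listed from 0.03 to 1.59. Both lowest values were those of chromosome 8 at 65 to 70 Mb, where the second-listed allele was thus hardly higher and the first-listed was lower. In the high segments the first-listed allele was higher by 0.83 (chromosome 1), 0.98 (chromosome 4) and 0.54 (chromosome 12), and the second-listed allele stood at -0.17, 0.01 and -0.18. Reads given to neither allele, which the rule did not use either, followed the totals, with ratios from 0.11 on chromosome 12 to 1.07 on chromosome 10. The number of DNA copies of an allele and the openness of each copy cannot be told apart in peak reads, nor can a difference in all cells and a larger one in some of them.

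**Figure D2:**
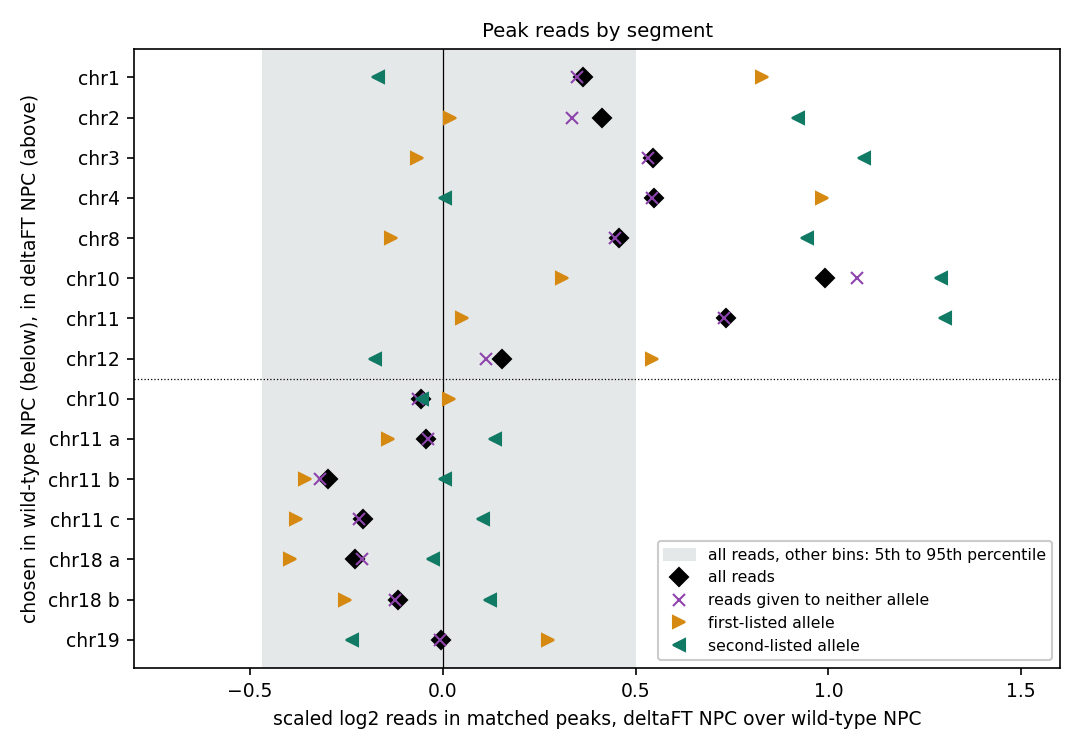
Scaled log2 ratio of reads in matched peaks, deltaFT NPC over wild-type NPC, for each segment, with all reads, reads given to neither allele and reads of each allele as separate symbols; the grey band spans the 5th to 95th percentile (-0.47 to 0.50) of all reads in the 427 other bins. In the upper 8 segments 1 allele stands between 0.54 and 1.303 and the other between -0.18 and 0.31, and in the lower 7 segments both stand between -0.40 and 0.27.

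Over single matched peaks the shift was broad. On chromosome 11 at 85 to 100 Mb 196 of 231 matched peaks (84.8%) had a log2 ratio above 0, with a median of 0.66 and quartiles of 0.20 and 1.09. On chromosome 10 it was 33 of 36 peaks (91.7%). On chromosomes 1, 2, 3, 4 and 8 the share above 0 was between 67.7% and 71.6%, and on chromosome 12 it was 51.9%. In the other autosomal bins 51.5% of 24025 matched peaks were above 0. Over whole bins, chromosome 12 was therefore the segment of deltaFT NPC in which the totals stood least apart. In that bin the unequal stretch began at 91.8 Mb by the fit of its ends.

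Against mESC, 9 of the 14 bins had at least 20 matched peaks. Of these, 5 had at least 1.25-fold more reads in deltaFT NPC than in mESC and 1 had fewer, where 7.12% and 9.96% of 281 bins did. The highest ratios were 0.77 (chromosome 11 at 85 to 90 Mb), 0.63 (chromosome 3 at 65 to 70 Mb), 0.51 (chromosome 11 at 90 to 95 Mb), 0.46 (chromosome 1) and 0.35 (chromosome 8 at 70 to 75 Mb). In the same 9 bins wild-type NPC over mESC passed that fold upwards in none and downwards in 1, where 18.7% and 16.9% of 284 bins did, and 8 of the 9 ratios lay between -0.30 and 0.10. The ninth was chromosome 12, with -0.71 in deltaFT NPC over mESC and -0.91 in wild-type NPC over mESC. Both comparisons share the mESC sample.

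The ends of the deltaFT segments were placed by a fit of 2 levels to the peak shares, a step added after the values had been seen. The fitted stretch was 13.8 Mb long on chromosome 8, with 289 peaks and ends at 67.6 and 81.3 Mb. It was 12.2 Mb on chromosome 11 (84.7 to 96.9 Mb, 322 peaks), 11.1 Mb on chromosome 3 (58.7 to 69.8 Mb) and 6.16 Mb on chromosome 10 (19.3 to 25.4 Mb). On chromosome 2 it was 5.64 Mb long, ended at 8.68 Mb and began with the first usable peak of the chromosome at 3.04 Mb. On chromosome 4 it was 4.66 Mb (54.98 to 59.6 Mb) and on chromosome 12 7.25 Mb (91.8 to 99.1 Mb). The stretch on chromosome 1 ran from 114.4 to 123.5 Mb, but 3 of its 92 peaks lay outside the member bin, so its left end rested on few peaks. The left end on chromosome 3, and with it the length there, likewise rested on 3 peaks outside the member bins. On chromosome 12, 15 of the 67 peaks lay outside the member bin. In the 1 Mb windows from 95 to 99 Mb there, wild-type NPC had pooled first-listed shares of 27.3%, 16.1%, 5.1% and 52.4%. These rested on 3, 3, 1 and 3 usable peaks.

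The fitted ends fell between single peaks. The nearest usable peaks on either side of an end were between 4.28 and 2542 kb apart. The smallest gap was at the left end on chromosome 1, which rested on few peaks. These gaps are spacings of peaks and not the uncertainty of an end, which was not estimated. The right ends on chromosomes 8 and 11 lay in gaps of 9.95 and 8.35 kb. Over the 20 usable peaks on each side, the share of the allele read less fell inside by 10.7 to 23.8 percentage points in deltaFT NPC, with a median of 18.0, a size that the fit itself selects for. At the same positions the drop had a median of 0.02 points in wild-type NPC and 1.42 points in mESC. It was above 0 at 8 ends and below 0 at 7 in wild-type NPC, and likewise in mESC. In wild-type NPC and mESC the allele shares thus had no common direction across these ends, and single ends ranged from -14.1 to 10.7 points in wild-type NPC.

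**Figure D3:**
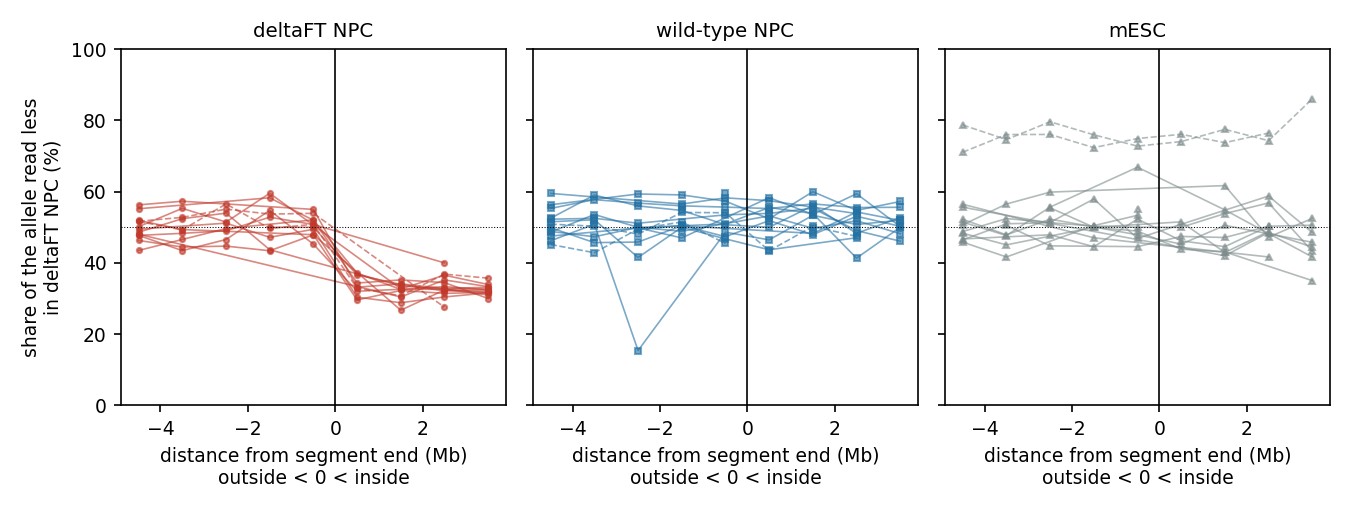
Median share (%) of the allele read less in deltaFT NPC against distance from the fitted end of a segment (Mb, inside positive) in windows of 1 Mb with at least 5 peaks, with 1 line per end and dashed lines for chromosome 12. In deltaFT NPC the windows next to the ends had a median of 33.03% inside (8 windows) and 50.8% outside (11 windows). The medians were 52.8% (12) and 52.2% (12) in wild-type NPC, and 48.7% (8) and 52.3% (11) in mESC. Not every end had such a window with enough peaks. A wild-type window at 15.4% rests on 5 peaks.

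Total reads were also compared across the same ends. The fit used allele shares and not totals, but the totals include the allelic reads. Over the 20 matched peaks inside each end, the scaled log2 ratio of deltaFT NPC over wild-type NPC was between -0.07 and 0.93, with a median of 0.59. Over the 20 outside it was between -0.59 and 0.41, with a median of -0.04. The inside value was above the outside value at all 15 ends, by 0.02 to 1.47. The largest differences were 1.47 at the right end on chromosome 3, 1.02 at the left end on chromosome 11 and 0.95 at the right end on chromosome 10. The smallest were 0.02 and 0.12 at the right ends on chromosomes 12 and 1.

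**Figure D4:**
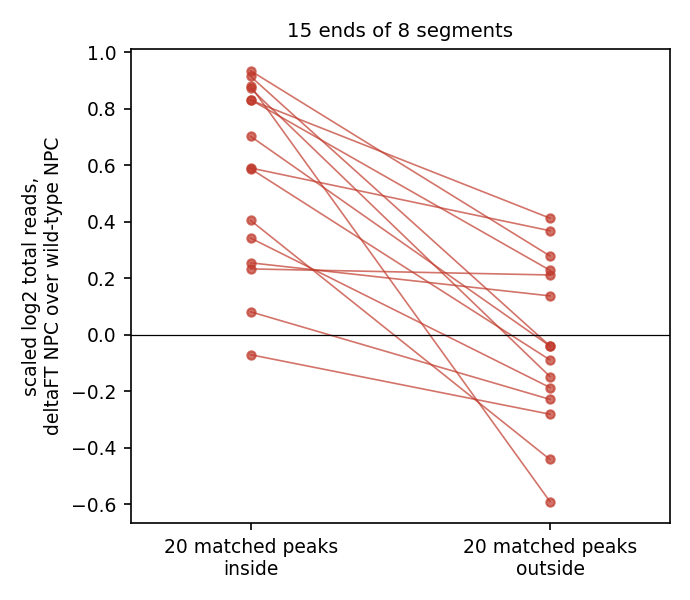
Scaled log2 ratio of total reads, deltaFT NPC over wild-type NPC, in the 20 matched peaks inside and the 20 outside each of 15 ends of the 8 deltaFT segments, joined by a line per end. All 15 lines are higher inside, with a median of 0.59 inside and -0.04 outside. The same contrast was not read at other autosomal positions.

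The bins chosen in wild-type NPC lay nearer the limits. Of the 11, 10 (2.08% of the bins tested) were high in the first-listed allele and 1 (0.208%) was low. The 10 high bins had medians between 50.5% and 57.8% in deltaFT NPC, between 60.3% and 64.4% in wild-type NPC and, in the 7 with enough peaks, between 45.9% and 57.3% in mESC. They did not stand apart from their neighbours: 3 further bins of chromosome 11 had a median of 60% each, and 9 bins of deltaFT NPC and 39 of wild-type NPC had a median from 55% to 60%. The chromosome 19 bin, at 39.7%, was next in order to bins at 41.1%, 41.2% and 41.6% on the same chromosome.

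On chromosome 11 the wild-type alleles were unequal over the first 60 Mb. The stretches used here and below were not planned, and their ends follow the bin medians, so the shares within them are a description. The pooled first-listed share from 0 to 60 Mb was 54.0% in deltaFT NPC, 60.2% (interval 59.8% to 60.5%) in wild-type NPC and 52.9% in mESC. From 60 to 110 Mb, which holds a deltaFT segment, it was 42.5% in deltaFT NPC and 55.9% in wild-type NPC. From 110 to 125 Mb it was 48.7% in deltaFT NPC and 52.8% in wild-type NPC. The largest of the wild-type segments, at 45 to 60 Mb, had 14448 first-listed and 12735 second-listed reads in deltaFT NPC, a share of 53.2%. It had 20009 and 11725 reads in wild-type NPC, a share of 63.1% (62.5% to 63.6%), and 7552 and 7464 in mESC (50.3%). The smaller segments at 15 to 20 and 35 to 40 Mb had shares of 54.9% and 55.3% in deltaFT NPC and of 59.2% and 61.7% in wild-type NPC.

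Chromosome 18 was also unequal in wild-type NPC over its first 30 Mb. From 0 to 30 Mb the share was 53.02% in deltaFT NPC, 61.0% (interval 60.5% to 61.6%) in wild-type NPC and 50.6% in mESC. From 30 to 55 Mb it was 47.1% in deltaFT NPC and 55.6% in wild-type NPC, and from 55 to 95 Mb it was 45.4% in deltaFT NPC and 50.5% in wild-type NPC. Wild-type NPC were thus above deltaFT NPC in each of the 3 stretches, and both lines were lower in each stretch than in the one before it. The steps between stretches depend in part on where their ends were drawn. The segment at 15 to 30 Mb had 6849 first-listed and 6275 second-listed reads in deltaFT NPC (52.2%) and 10215 and 6444 in wild-type NPC (61.3%). The bin at 0 to 5 Mb rested on 20 usable peaks in deltaFT NPC, at 53.5%, and on 22 in wild-type NPC, at 60.2%.

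In wild-type NPC chromosome 19 was shifted to the second-listed allele from 10 to 45 Mb. Over that stretch the share was 48.8% in deltaFT NPC, 41.7% (interval 41.3% to 42.1%) in wild-type NPC and 49.5% in mESC. All 7 bins of that stretch had wild-type medians between 39.7% and 43.4%, but its ends follow these medians. The member bin at 35 to 40 Mb had 3977 first-listed and 4211 second-listed reads in deltaFT NPC (48.6%). It had 3108 and 4496 in wild-type NPC (40.9%, interval 39.8% to 42.0%) and 2223 and 2552 in mESC (46.6%). From 0 to 10 Mb the wild-type share was 46.6%.

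Chromosome 10 at 5 to 10 Mb was the wild-type segment whose pooled share differed least between the NPC lines. The first-listed share was 59.9% (interval 58.7% to 61.0%) in deltaFT NPC, 59.5% (58.4% to 60.5%) in wild-type NPC, and in mESC 59.7% (58.3% to 61.1%). The 3 intervals overlapped. Its medians were 57.8% in deltaFT NPC, 60.9% in wild-type NPC and 57.3% in mESC, so the limit of 60% alone made it a member through wild-type NPC.

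In the wild-type bins too most peaks lay on the side of their bin. In the high bins 497 of 600 peaks (82.8%, interval 79.6% to 85.8%) had a share over 50% in wild-type NPC, where 57.2% of peaks over all bins lay on the side of their bin's median. In the chromosome 19 bin it was 53 of 64 (82.8%). Peaks of the high bins that also lay in the mESC list pooled to 62.1% and the others to 61.3%, a difference of under 1 point with overlapping intervals (61.5% to 62.6% and 60.8% to 61.8%). Peaks with few reads pooled to 61.0% and those with many to 61.9%. In the chromosome 19 bin the classes lay further apart: peaks also in the mESC list pooled to 43.5% (41.8% to 45.1%) and the others to 38.6% (37.1% to 40.1%).

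Of the 21 peaks named in the wild-type segments, 16 lay on the side of their segment in deltaFT NPC and all 21 in wild-type NPC. The wild-type shares are again those the choice of bins rested on. At chr11:58115313-58116491 the first-listed and second-listed alleles had 294 and 243 reads in deltaFT NPC (54.7%), 607 and 340 in wild-type NPC (64.1%), and 157 and 198 in mESC (44.2%). At chr18:21458118-21459237 they had 627 and 476 in deltaFT NPC (56.8%), 847 and 590 in wild-type NPC (58.9%), and 328 and 289 in mESC (53.2%). At chr19:35998658-35999365, found in no mESC list, they had 130 and 120 in deltaFT NPC (52.0%) and 225 and 437 in wild-type NPC (34.0%). The chromosome 18 peak was close between the NPC lines, and the other 2 were not.

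Totals in the wild-type bins stood near those of other bins. Of the 9 with at least 20 matched peaks, none had 1.25-fold more reads in deltaFT NPC than in wild-type NPC and 2 had 1.25-fold fewer, where 14.2% of all bins did. These were chromosome 11 at 45 to 50 Mb with a log2 ratio of -0.35 and chromosome 18 at 25 to 30 Mb with -0.42. All 9 ratios were below 0, with a median of -0.12, and all were inside the 5th to 95th percentile of other bins. By segment the first-listed allele was at -0.38 on chromosome 11 at 45 to 60 Mb and at -0.25 on chromosome 18 at 15 to 30 Mb, with the second-listed allele at 0.10 and 0.12. On chromosome 19 the first-listed allele was at 0.27 and the second-listed at -0.24, and the total at -0.01. In the chromosome 19 bin the alleles stood on opposite sides of 0 at similar distances. These allele ratios hold the wild-type counts that the bins were chosen by. Which allele is higher is thus largely set by the choice and is a description only. Against mESC, wild-type NPC passed the fold upwards in 2 of 6 bins with enough matched peaks, where 18.7% of 284 bins did. Both were on chromosome 11, the one from 45 to 50 Mb (0.34) and the one from 55 to 60 Mb (0.42), and by the median over matched peaks the count was 0.

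The lists of single libraries gave peak numbers that the choice of bins did not use. Both deltaFT libraries had more peaks per 1000 autosomal peaks than both wild-type libraries in 10 of the 14 deltaFT bins, where 31.9% of 480 bins did. In chromosome 11 at 85 to 90 Mb the deltaFT libraries had 3.99 and 4.21 peaks per 1000, the wild-type libraries 2.85 and 2.91, and the mESC libraries 3.29 and 3.44. In chromosome 10 at 20 to 25 Mb they had 2.71 and 2.60 in deltaFT NPC, 1.37 and 1.75 in wild-type NPC, and 1.73 and 1.67 in mESC. In both bins the deltaFT libraries lay above the wild-type and the mESC libraries. Both deltaFT libraries were below both wild-type libraries in chromosome 8 at 65 to 70 Mb, with 0.972 and 0.885 against 1.27 and 1.22.

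In the bins chosen in wild-type NPC, both deltaFT libraries were below both wild-type libraries in 9 of 11, where 43.3% of all bins were. Over the 10 high bins the deltaFT libraries had 15.2 and 15.9 peaks per 1000, the wild-type libraries 18.7 and 17.6, and the mESC libraries 16.6 and 16. Over the 11 low deltaFT bins the deltaFT libraries had 29.5 and 30.02 peaks per 1000, the wild-type libraries 23.4 and 23.9, and the mESC libraries 23.6 and 24.5. The male TXY lists had between 21.1 and 25.8 per 1000 in the low deltaFT bins and between 13.5 and 14.1 in the high wild-type bins. In the low deltaFT bins the deltaFT libraries were thus above all other lists.

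**Figure D5:**
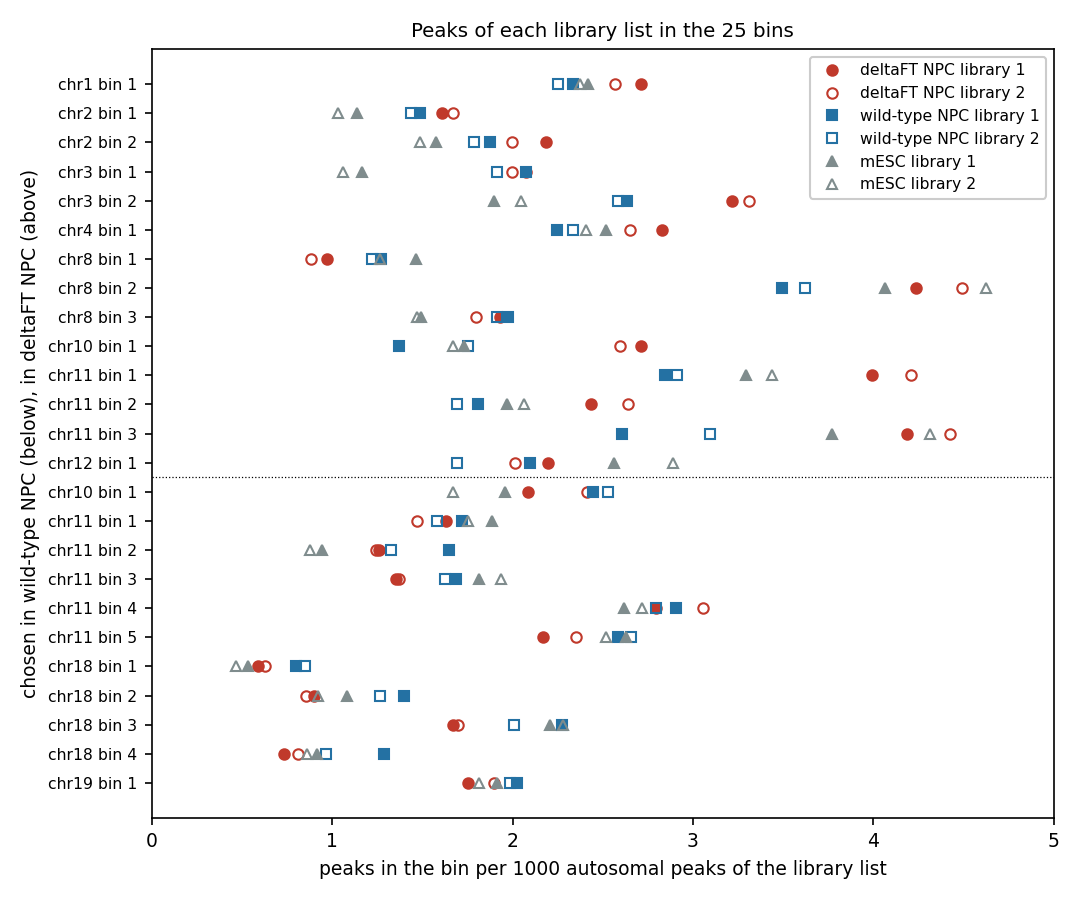
Peaks in each of the 25 bins per 1000 autosomal peaks of a library list, for both libraries of deltaFT NPC, wild-type NPC and mESC (filled symbols, library 1; open symbols, library 2), with bins numbered along each chromosome. In 10 of the 14 upper bins both deltaFT symbols lie right of both wild-type symbols, and in 9 of the 11 lower bins they lie left of them.

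The share of peaks also found in another line's list was counted for each kind of bin. In the low deltaFT bins 683 of 1190 deltaFT peaks (57.4%, interval 54.5% to 60.2%) were also in the wild-type list, against 72.6% of deltaFT peaks in the other bins. In the high deltaFT bins it was 69.5% (63.8% to 74.8%), an interval that includes the share in the other bins. In the mESC list 31.5% (28.9% to 34.2%) of the low-bin peaks were found, against 36.5% of peaks elsewhere. In the high wild-type bins 59.8% (56.1% to 63.4%) of wild-type peaks were in the deltaFT list and 27.8% (24.5% to 31.2%) in the mESC list, against 65.8% and 31.7% elsewhere. In the chromosome 19 bin 44 of 69 wild-type peaks (63.8%, 51.3% to 75.01%) were in the deltaFT list. Over all 25 bins together 64.9% of deltaFT peaks were in the wild-type list, below the 72.6% of other bins, and 68.8% (66.7% to 70.8%) of wild-type peaks were in the deltaFT list, above the 65.8% of other bins. The largest of these gaps was that of the low deltaFT bins, in which deltaFT NPC had 1190 peaks, more of them missing from the wild-type list than in other bins. Total reads were also higher in the low deltaFT bins (median log2 ratio 0.54), and their part in these shares was not tested.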

How the data were processed

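ATAC-seq reads were trimmed with cutadapt and aligned with Bowtie2 to mm9, and peaks were called with MACS2, per the submitters' processing notes. The sources used here do not give versions, settings, duplicate removal, any shift of insertion sites or how reads were assigned to alleles. The 3 peak lists with allele columns hold deposited read counts (all reads, and reads of the first-listed and second-listed allele) for peaks with an IDR, a measure of reproducibility between libraries, under 0.05. The sources do not say if a count sums both libraries. The library lists hold peaks with a deposited fold enrichment ratio and deposited −log10 p and q values, of which positions were used, and −log10 q in 1 alternative. Starts are printed 1 above the deposited value.

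Shares, sums and exact intervals used scipy 1.17.1, pandas 2.3.3 and numpy 2.4.6 under Python 3.11.15, and matplotlib 3.10.9 drew the plots. The calculations were tested on simulated data. Peaks of different lists were matched by an overlap of at least 1 base. A bin's read ratio needed 20 matched peaks, and all ratios were scaled by the median of the bins outside the 25. Segment values sum all matched peaks. A bin was counted as higher or lower at 1.25-fold. Segment ends came from a least-squares fit of 2 levels to the peak shares, searched within 20 Mb with at least 20 peaks inside. That fit, the reads beside the ends and the 1 Mb windows were added after the values were seen. The longer stretches of chromosomes 11, 18 and 19 were not planned either, and their ends follow the bin medians. The peaks named were, per segment, the 2 with most reads in all 3 lists and the 1 with most reads in no mESC list. The bins, limits and lists were chosen with earlier results of these data known. Gene lists and cell type markers were not used here, since no mm9 annotation was. With 1 sample per group, no p-values were computed.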

Additional observations from a re-analysis of the deposited data

Results flagged for a closer look

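In 7 of the bins the total reads of the NPC lines lay on opposite sides of mESC on the scaled log2 scale. The difference was not tested, each group is 1 sample, and both ratios share the mESC sample. Each ratio was scaled to a median of 0 over the other bins, so its sign gives only the side of that median. How many other bins split in this way was not counted, so the 7 bins are a description and show no excess. Of the bins chosen in deltaFT NPC, 9 had both ratios. In 3 of these 9, deltaFT NPC was above mESC and wild-type NPC below it. The ratios were 0.27 in deltaFT NPC and -0.035 in wild-type NPC for chromosome 4 at 55 to 60 Mb. They were 0.35 and -0.093 in those lines for chromosome 8 at 70 to 75 Mb, and 0.16 and -0.064 at 75 to 80 Mb.

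Of the bins chosen in wild-type NPC, 6 had both ratios, and in 4 of these 6 the order was the other way round. The ratios were -0.055 in deltaFT NPC and 0.095 in wild-type NPC for chromosome 10 at 5 to 10 Mb. On chromosome 11 they were -0.18 in deltaFT NPC and 0.34 in wild-type NPC at 45 to 50 Mb. They were -0.11 and 0.17 in those lines at 50 to 55 Mb, and -0.10 and 0.42 at 55 to 60 Mb.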

How the results depend on the processing

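Over 13 results and 35 alternatives, 27 values stayed close to those reported and 8 moved. With 10 Mb bins, 9 bins were chosen in deltaFT NPC and 5 in wild-type NPC, in place of 14 and 11; these bins are longer, so fewer cover a segment. With limits of 35% and 65%, 10 bins were chosen in deltaFT NPC and 0 in wild-type NPC. Without the peak with most allelic reads of each bin, 2 member bins were past the limits in mESC, against 1. By the median over matched peaks, 1 wild-type bin in place of 2 had 1.25-fold fewer reads in deltaFT NPC than in wild-type NPC. With all peaks of each list, 11 deltaFT bins in place of 5 had more reads in deltaFT NPC than in mESC. Bins with few matched peaks then entered, but too few of them to make up the whole change, whose cause was not tested. The wild-type bins with more reads in wild-type NPC than in mESC numbered 1 with all peaks and 0 by the median over matched peaks, against 2. Where no construction is named, the cause was not tested. No paired analysis was possible because each group is 1 sample. Leaving out a library was not possible either, since the allele counts are not split by library. Depth limits single peaks most: at 10 allelic reads a share is known only coarsely, and mESC had fewer reads in peaks than either NPC line.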

Other observations

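A finer grid of 1 Mb windows, each holding 10 or more usable peaks, showed further places with unequal alleles. In deltaFT NPC 44 of 70 windows inside the member bins were past the limits, against 22 of 1302 elsewhere (1.69%). In wild-type NPC it was 21 of 72 inside and 54 of 1451 elsewhere (3.72%). The bins were chosen by the shares of these same peaks, so the excess inside them in the NPC lines is set by the choice. In mESC, which the rule did not use, it was 4 of 52 inside and 48 of 961 elsewhere (4.99%). Chromosome 4 held 5 of the deltaFT windows outside the bins, between 40 and 47 Mb. At 45 to 46 Mb the median first-listed share was 64.1% in deltaFT NPC, 43.5% in wild-type NPC and 44.2% in mESC. At 46 to 47 Mb it was 66.0% in deltaFT NPC, 48.2% in wild-type NPC and 48.2% in mESC. These windows lie in the bins at 40 to 45 and 45 to 50 Mb, which were nearest outside the upper limit.

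Windows next to chosen bins included chromosome 8 at 80 to 81 Mb, with a median of 32.6% in deltaFT NPC, 49.5% in wild-type NPC and 47.9% in mESC. Chromosome 10 at 25 to 26 Mb had 32.0% in deltaFT NPC and 47.3% in wild-type NPC. Past the limits in wild-type NPC, chromosome 17 at 27 to 28 Mb had a median of 50.4% in deltaFT NPC, 66.6% over 24 peaks in wild-type NPC and 48.9% in mESC. Chromosome 6 at 114 to 115 Mb had 52.6% in deltaFT NPC, 65% over 31 peaks in wild-type NPC and 44.7% in mESC.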
